A study of Homo sapiens with 21 samples.

Results

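FADU cells, a human head and neck squamous cancer cell line, were compared under METTL4 knockdown plus hypoxia against control cells in normoxia. The comparison holds 4 of the 21 RNA-seq libraries of the series: both FADU libraries labelled METTL4 siRNA and kept at 1% O2 for 18 h (METTL4-si hypoxia), and both FADU libraries labelled control siRNA and kept at 18% O2 (Scr-si normoxia). They are the METTL4-si hypoxia and Scr-si normoxia columns of the FADU knockdown table, which also holds 2 libraries of Scr-si cells at 1% O2 for 18 h (Scr-si hypoxia). All 6 libraries shared the estimate of the spread, which was unequal. Between replicates, 457 genes were over 2-fold apart in METTL4-si hypoxia, 139 in Scr-si normoxia and 8 in Scr-si hypoxia. The shared estimate is narrowed by Scr-si hypoxia, a group outside the comparison, so p-values against normoxia may be too small. The series lists no METTL4-si library in normoxia, so the effect of the knockdown without hypoxia cannot be told apart from its effect under hypoxia. The study's methods describe lentiviral shRNA plasmids and antibiotic-selected stable cells, whereas the labels say siRNA, and nothing says whether replicates 1 and 2 came from separate cultures, so p-values measure the spread between these libraries.

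METTL4 is an adenine methyltransferase, and hypoxia is the main signal that stabilizes the hypoxia-inducible factors (HIFs). HIF subunits are hydroxylated and degraded while oxygen is present. When oxygen falls they accumulate, bind a short core sequence in DNA and raise genes of glycolysis, pH control, angiogenesis and mitophagy. The question was which genes stayed away from the normoxia level when METTL4-si and hypoxia were combined, and which ones sat back at that level.

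Values are TMM-normalized CPM, read counts scaled to the size of each library. Genes that reached 1 in 2 or more of the 6 libraries were tested, which kept 16324 of 19505. Fold changes are on the log2(value + 1) scale, which understates the change of genes with low values. A gene was called when it differed by at least 1.3-fold with an adjusted p under 0.05 by limma with Benjamini-Hochberg adjustment over all tested genes. Each library held from 21.2 to 24.9 M reads on genes. A gene in bulk RNA is a sum over all cells of a library, so fewer cells that express it and less of its RNA per cell cannot be told apart.

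The label check came first. METTL4 itself (chromosome 18, 2537524 to 2571508, GRCh37) had values of 31.9 and 30.8 in the Scr-si normoxia libraries, 26.6 and 25.3 in Scr-si hypoxia, and 24.2 and 27.1 in METTL4-si hypoxia. The METTL4-si libraries were below both normoxia libraries but overlapped with Scr-si hypoxia, where the difference was -0.02 (adjusted p = 0.900). Against normoxia the log2 fold change was -0.28 (SE 0.0881, adjusted p = 0.0563). METTL4 RNA thus did not set these libraries apart from Scr-si hypoxia, and most HIF target genes in them, described below, sat near the normoxia level. The study reports that METTL4 knockdown abolished the hypoxic rise of Glut1 and REDD1 and the staining of METTL4 protein. The level of HIF targets therefore does not tell whether these libraries were hypoxic, and protein was not measured here. Whether knockdown and oxygen level were as labelled was not tested, so they are called the libraries labelled METTL4-si. The squamous epithelium list, which fits the origin of FADU cells, was detected in all 6 libraries, with all 7 members tested and a summed level from 2062 to 3727.

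Both replicates 1 share transcripts of other cells. Luminal breast markers had a summed level of 227 in normoxia replicate 1 and 938 in METTL4-si replicate 1, against 48.9 to 57.0 in the other 4 libraries, over 11 of 16 listed markers in the table. TFF1 was listed at 0 in those 4 libraries and had 26.2 and 135 in the replicates 1, and GATA3, a luminal transcription factor, had 41.1 and 216 against 2.19 to 3.19. A fibroblast marker list, with 2 of 8 members tested, summed to 25.6 and 116 in the replicates 1 and to 4.4 to 5.87 elsewhere. In all, 70 genes were over 3 times as high in both replicates 1 as in the other 4 libraries, and they made up 0.0560% of the values of normoxia replicate 1 and 0.309% of METTL4-si replicate 1. None of the 70 genes, and none of the 11 luminal markers, was called, but 10 of the 11 were called higher when METTL4-si replicate 2 was left out. Their part in the other results was not tested, and the main counts are therefore given beside replicates 2 alone.

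Against Scr-si normoxia, 1327 of 16324 genes were higher in METTL4-si hypoxia (8.13%) and 2204 were lower (13.5%). In the pair of replicates 2 alone, 1227 of the 1327 and 2057 of the 2204 genes were past 1.3-fold on the same side. Replicates 2 are among the libraries that gave the calls, so such counts, here and below, of called genes or of list members are not an independent check. By fold alone, with no test, that pair placed 2478 genes higher (15.2%) and 3176 lower (19.5%). The counts moved with the libraries used: without normoxia replicate 1 they were 248 and 1051, without normoxia replicate 2 they were 144 and 615, and without either Scr-si hypoxia library 682 genes were higher. Without METTL4-si replicate 2, the library that holds fewer transcripts of other cells, 2326 genes were higher.

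Each gene was then placed by what hypoxia alone did. Scr-si hypoxia against Scr-si normoxia gave 1588 higher genes (9.73%) and 1575 lower genes (9.65%). Both comparisons use the same normoxia libraries, so their values are set side by side and no overlap between them is tested. Of the 1588 hypoxia-raised genes, 950 (59.8%) were within 1.3-fold of normoxia in the libraries labelled METTL4-si, 406 (25.6%) were still called higher and 109 (6.86%) were called lower than normoxia. The remaining 123 were past 1.3-fold without a call. Of the 1575 hypoxia-lowered genes, 994 (63.1%) were within 1.3-fold, 433 (27.5%) were still lower and 59 (3.75%) were now higher, and 89 were past 1.3-fold without a call. A further 862 genes were higher and 1662 lower in METTL4-si hypoxia although hypoxia alone gave no call. Set against Scr-si hypoxia directly, METTL4-si hypoxia had 2038 higher genes (12.5%) and 2496 lower genes (15.3%).

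Within 1.3-fold does not mean equal. For 267 of the 950 raised genes and for 334 of the 994 lowered ones, the whole 95% interval of the difference from normoxia lay inside 1.3-fold, and for the others it reached past that fold. In replicates 2 alone, 820 of the 950 and 886 of the 994 were within 1.3-fold. Replicates 2 alone also put 382 of the 406 still higher genes, 411 of the 433 still lower genes, 96 of the 109 now lower genes and 55 of the 59 now higher genes past 1.3-fold on the same side. All of these counts fell when a library of the control groups was left out. Without normoxia replicate 1 or 2 there were 62 and 43 still higher genes, 104 and 78 still lower, 332 and 341 raised and back, and 242 and 260 lowered and back. Without Scr-si hypoxia replicate 1 or 2 there were 108 and 84 still higher, 122 and 102 still lower, 323 and 249 raised and back, and 243 and 181 lowered and back. Without METTL4-si replicate 1 there were 671 still lower genes.

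Short core sequences in the promoters of these genes can be shown beside their values. The sequences are the 250 bases before the RefSeq start of each gene (GRCh38.p14), written 5′ to 3′ along the gene's own strand in lower case. The first pair is from genes that hypoxia raised over 10-fold and that were back at normoxia level, and capitals mark the core that HIFs bind, ACGTG or GCGTG, or its other strand, CACGT or CACGC. CA9 lies on the + strand with its window at chr9:35673678-35673927, and its 1 match begins 18 bases before the start. BNIP3 lies on the - strand at chr10:131981924-131982173 and has 6 matches, counting both strands and overlaps.
CA9: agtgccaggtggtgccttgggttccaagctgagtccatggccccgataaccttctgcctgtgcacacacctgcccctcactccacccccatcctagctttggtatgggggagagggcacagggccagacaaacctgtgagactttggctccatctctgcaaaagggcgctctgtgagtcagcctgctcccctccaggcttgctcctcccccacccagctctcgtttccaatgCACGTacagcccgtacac
BNIP3: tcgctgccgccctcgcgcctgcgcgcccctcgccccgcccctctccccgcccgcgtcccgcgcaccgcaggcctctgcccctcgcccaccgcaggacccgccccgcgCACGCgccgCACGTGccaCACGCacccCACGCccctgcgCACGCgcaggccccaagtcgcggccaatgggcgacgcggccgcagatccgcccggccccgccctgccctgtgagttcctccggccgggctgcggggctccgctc
The core is common: in windows of 300 bases, 250 before and 50 after the start, it was found for 415 of 689 raised and back genes with a promoter in the table (60.2%), for 63.2% of all tested genes with a promoter, and for 25 of 31 HIF target list genes (80.6%). EGLN3 and TCAF2, also raised and back, have no match in the 250 bases.

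The next 3 promoters are from genes that were far above normoxia in the libraries labelled METTL4-si. Capitals mark GAAA, any 2 bases and GAAA again, or on the other strand TTTC, any 2 bases and TTTC, the core of the element through which interferon signals. IFI27 lies at chr14:94110486-94110735 on the + strand, BST2 at chr19:17405631-17405880 on the - strand, and IFI6 at chr1:27672193-27672442 on the - strand. IFI27 and BST2 have 2 matches each, which overlap in BST2, and IFI6 has 3.
IFI27: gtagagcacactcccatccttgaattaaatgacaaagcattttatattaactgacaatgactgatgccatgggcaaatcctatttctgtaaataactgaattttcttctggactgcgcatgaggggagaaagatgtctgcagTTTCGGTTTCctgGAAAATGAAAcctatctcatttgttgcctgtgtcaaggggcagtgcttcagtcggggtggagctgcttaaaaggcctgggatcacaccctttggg
BST2: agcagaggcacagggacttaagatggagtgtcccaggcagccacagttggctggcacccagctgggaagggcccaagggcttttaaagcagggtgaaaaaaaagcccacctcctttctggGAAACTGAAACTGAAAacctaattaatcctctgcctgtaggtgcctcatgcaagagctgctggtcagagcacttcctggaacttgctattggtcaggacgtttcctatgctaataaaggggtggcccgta
IFI6: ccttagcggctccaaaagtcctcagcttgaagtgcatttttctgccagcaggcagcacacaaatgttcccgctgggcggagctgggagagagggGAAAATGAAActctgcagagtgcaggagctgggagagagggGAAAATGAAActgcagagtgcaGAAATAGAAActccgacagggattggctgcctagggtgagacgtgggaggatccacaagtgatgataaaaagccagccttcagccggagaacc
This core was found for 23 of 264 still higher genes with a promoter (8.71%), for 22 of 562 genes that were higher without a call under hypoxia alone, the group of IFI6 (3.91%), for 298 of all 10844 tested genes with one (2.75%) and for 15 of 25 interferon list genes (60%). ABCA1, PPM1K and GLDC, among the genes that differed most, have no match in their windows. A match is a description of the letters and not a site in use.

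Genes raised by hypoxia and back at normoxia level were led by HIF targets. NDRG1, a stress-responsive differentiation gene, had values of 144 and 146 in normoxia, 2649.7 and 3135 in Scr-si hypoxia, and 152 and 171 in METTL4-si hypoxia. CA9, a carbonic anhydrase of pH control, had 2.33 and 2.55, then 31.0 and 37.8, then 1.87 and 2.22. BNIP3, a mitophagy receptor whose promoter is printed above, had 14.4 and 15.4, then 188 and 175, then 13.2 and 11.7. In all 3 genes the Scr-si hypoxia libraries stood far above the others, and the METTL4-si libraries lay near or just outside the normoxia pair. Their log2 fold changes against normoxia were 0.15 (SE 0.101, adjusted p = 0.298), -0.17 (SE 0.143, adjusted p = 0.399) and -0.24 (SE 0.0912, adjusted p = 0.0922).

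EGLN3, a prolyl hydroxylase that marks HIFs for degradation, had 19.9 and 23.2, then 274 and 311, then 17.2 and 17.6. TCAF2, a regulator of the TRPM8 channel with a near-identical copy that could share its reads, had 2.24 and 1.88, then 34.3 and 37.6, then 2.19 and 1.87. DNAH11, an axonemal dynein, had 1.79 and 2.01, then 32.7 and 29.8, then 2.39 and 2.58. Hypoxia alone raised them by 3.48 to 3.70 on the log2 scale, and none was called against normoxia in METTL4-si hypoxia. The EGLN3 libraries of METTL4-si lay below both normoxia libraries, with a log2 fold change of -0.29 (adjusted p = 0.0722), and those of DNAH11 above both, with 0.27 (adjusted p = 0.148).

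Over the HIF target list the same held for most members. Of 40 members, hypoxia alone raised 38 and lowered VEGFA, with a median log2 fold change of 1.72 against -0.03 over all tested genes. In METTL4-si hypoxia the median was 0.19 against 0.01 over all genes. There 25 of the 38 were back within 1.3-fold, 8 were still higher and 3 were now lower, and against Scr-si hypoxia 36 of 40 were lower. The 8 that stayed up lay well below Scr-si hypoxia. P4HA2, a collagen prolyl hydroxylase, had 22.7 and 23.1, then 78.1 and 85.5, then 37.8 and 37.6, so both METTL4-si libraries lay between the other groups. PLOD2, a collagen lysyl hydroxylase, had 109.6 and 113, then 485 and 529, then 145 and 153. Their log2 fold changes in METTL4-si hypoxia were 0.69 (adjusted p = 0.00257) and 0.42 (adjusted p = 0.00780). PPFIA4, ANGPTL4, STC1, VLDLR and P4HA1 were also among the 8. The calls of PPFIA4, ANGPTL4 and STC1 were lost without either normoxia library, when 1 member was called higher. Without either Scr-si hypoxia library 4 members were, and without METTL4-si replicate 2 there were 12.

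Those below normoxia were AK4, an adenylate kinase, EGLN1, the main oxygen sensor for HIFs, and DDIT4, an inhibitor of mTORC1. AK4 had 109.7 and 118 in normoxia, 342 and 351 in Scr-si hypoxia, and 64.9 and 70.5 in METTL4-si hypoxia, a log2 fold change of -0.74 (SE 0.0718, adjusted p = 0.00215). EGLN1 had 33.7 and 33.5, then 114 and 115, then 24.4 and 22.6, and DDIT4 had 141 and 143, then 492 and 533, then 106 and 102. The METTL4-si libraries were below both normoxia libraries in each, and the calls of EGLN1 and DDIT4 were lost without normoxia replicate 2, which left 1 of the 3. CA12, a member that is also on the luminal breast list, had 6.02 and 36.5 in the replicates 1 of normoxia and METTL4-si and 0.0447 and 0.445 in their replicates 2, and was not called. EGLN1 and EGLN3 were counted with the HIF targets, and of the 7 tested members of a separate list of HIF subunits and other oxygen sensors none was called, with a median of -0.08, and HIF1A had 204 and 197 in normoxia and 208 and 188 in METTL4-si hypoxia.

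Glycolytic enzymes were divided between a return to the normoxia level and a call below it. Hypoxia alone raised 21 of 22 glycolysis genes, with a median log2 fold change of 1.18. In METTL4-si hypoxia 10 of them were back within 1.3-fold, 9 were now lower than normoxia and 2 were still higher, and the median was -0.14. LDHA, which turns pyruvate into lactate, had values of 834 and 862 in normoxia, 2315 and 2401 in Scr-si hypoxia, and 444 and 470.3 in METTL4-si hypoxia. GAPDH, the enzyme in the middle of the pathway, had 3407 and 3373, then 4579 and 4955, then 1697 and 1609. In both the 3 groups did not overlap and METTL4-si was lowest. The log2 fold changes against normoxia were -0.89 (SE 0.0730, adjusted p = 0.00170) for LDHA and -1.04 (SE 0.0934, adjusted p = 0.00191) for GAPDH.

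TPI1, ALDOA and PKM, enzymes of the lower and middle steps, fell by 0.83, 0.71 and 0.65 on the log2 scale, and the call of ALDOA was lost without either normoxia library. ENO1, PGAM1, GPI and ALDOC were the other members below normoxia. The entry of glucose sat at the normoxia level. SLC2A1, the main glucose transporter of these cells, had 371 and 352 in normoxia and 353 and 364 in METTL4-si hypoxia, and HK2, a hexokinase, had 61.7 and 61.0 against 64.6 and 64.2. The SLC2A1 pairs overlapped and those of HK2 were next to each other, with log2 fold changes of -0.01 and 0.07, after 1.89 and 2.21 under hypoxia alone. PDK1, which closes the mitochondrial entry of pyruvate, had 39.7 and 40.1, then 263 and 271, then 51.6 and 58.2, and ENO2, the neuronal enolase, had 15.7 and 17.7, then 109.9 and 119, then 22.8 and 21.4. Both lay just above normoxia and far below Scr-si hypoxia (log2 fold changes 0.45 and 0.38) with adjusted p = 0.00822 and 0.0246, and neither was called without a normoxia library, when 7 and 6 members were lower and none was higher. Of 12 glycogen genes, PPP1R3C, a glycogen-targeting phosphatase subunit, was still higher with a log2 fold change of 0.76. PGM1, phosphoglucomutase, was lower at -0.55. This is 1 gene on each side, beside 8.13% higher and 13.5% lower of all tested genes. Both calls were lost without either normoxia library, and hypoxia alone had raised 7 and lowered 1.

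Other genes that hypoxia had raised also ended below normoxia. CAVIN1, a coat protein of caveolae, had 158 and 154 in normoxia, 245 and 248 in Scr-si hypoxia, and 69.8 and 73.2 in METTL4-si hypoxia, a log2 fold change of -1.11 (SE 0.0611, adjusted p = 0.00100). RPSA, a laminin-binding ribosomal protein with many processed copies, had 809 and 873, then 1065 and 1131, then 424 and 402. MT2A, a metallothionein of a family of close copies, had 111 and 91.9, then 172 and 152, then 59.98 and 43.5. GPX2, a glutathione peroxidase, and FSCN1, an actin bundler, fell by 0.94 and 0.92 on the log2 scale. In all 5 genes both METTL4-si libraries were below both normoxia libraries, as the choice of these genes required, and the normoxia libraries were below Scr-si hypoxia. Without normoxia replicate 1 the MT2A call was lost and 32 genes were in this group, without replicate 2 the GPX2 call was lost and 23 were, and without Scr-si hypoxia replicate 1 or 2 the counts were 43 and 33.

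Genes that stayed above normoxia were led by ABCA1 and by interferon-stimulated genes. ABCA1 (chromosome 9, 107543287 to 107690436, GRCh37), which exports cholesterol from cells, had values of 5.65 and 3.75 in normoxia, 9.79 and 8.67 in Scr-si hypoxia, and 44.9 and 47.9 in METTL4-si hypoxia. IFI27, an interferon-induced mitochondrial protein, had 9.27 and 8.62, then 30.1 and 35.9, then 58.4 and 54.1. BST2, which tethers budding viruses, had 2.70 and 2.46, then 8.45 and 8.48, then 12.2 and 13.4. The groups were apart in all 3 and METTL4-si was highest, and its separation from normoxia was part of how these genes were chosen. The log2 fold changes against normoxia were 3.08 (SE 0.169), 2.52 (SE 0.108) and 1.95 (SE 0.117), with adjusted p = 0.00100, 0.00100 and 0.00138, and METTL4-si hypoxia was also higher than Scr-si hypoxia by 2.21, 0.75 and 0.54.

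IFIT2, an interferon-induced RNA-binding protein, had 31.6 and 34.4, then 95 and 97.4, then 90.9 and 118, so the hypoxic groups overlapped. HERC5, the ligase that attaches ISG15, had 34.9 and 40.9, then 66.5 and 69.2, then 102 and 133. HCAR3, a receptor for hydroxylated fatty acids whose reads may be shared with its near-identical neighbour HCAR2, had 4.94 and 4.65, then 13.3 and 16.6, then 15.2 and 18.0. All were about 3-fold above normoxia, with log2 fold changes of 1.60 to 1.62, and HERC5 alone of these differed from Scr-si hypoxia (0.77, adjusted p = 0.00665).

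Among genes that hypoxia alone did not change by a called amount, IFI6 and IFI44L came first. IFI6, an interferon-induced mitochondrial survival protein, had 10.7 and 9.02 in normoxia, 11.0 and 10.9 in Scr-si hypoxia, and 62.4 and 55.4 in METTL4-si hypoxia. The METTL4-si libraries stood alone, and the log2 fold change was 2.46 (SE 0.113, adjusted p = 0.00100). IFI44L had 11.2 and 11.3, then 13.2 and 16.6, then 35.5 and 46.1, a log2 fold change of 1.76. PPM1K, a phosphatase of branched-chain amino acid breakdown, and GLDC, which cleaves glycine, rose by 1.44 and 1.35. TIMP2, a metalloproteinase inhibitor, had 5.69 and 3.89 in normoxia and 20.8 and 10.3 in METTL4-si hypoxia, and its call was lost without either normoxia library. The identifier ENSG00000184779, which has no name in the annotation used, had 112 in Scr-si hypoxia replicate 1 and 35.9 in replicate 2, and its call was lost in the same way. Without normoxia replicate 1 or 2, 182 and 100 genes were in this group of 862, without Scr-si hypoxia replicate 1 there were 559 and without METTL4-si replicate 2 there were 1512, and replicates 2 alone put 790 of the 862 past 1.3-fold.

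Over the whole list of 32 interferon-stimulated genes, 19 were higher than normoxia in METTL4-si hypoxia and none was lower, with a median log2 fold change of 0.84. Hypoxia alone also raised 19, with a median of 0.68, and 17 members were higher in both comparisons. Against Scr-si hypoxia 6 were higher and 4 lower, with a median of 0.10. SAMD9 and ISG15 were raised by hypoxia and back, with log2 fold changes of 0.15 and 0.14. Of the transcription factors that carry the interferon signal, STAT2 had 53.7 and 57.2 in normoxia and 60.7 and 60.2 in METTL4-si hypoxia, and neither it nor IRF9 and IRF7 was called. Without METTL4-si replicate 1, 21 were higher and 1 lower. In replicates 2 alone 20 members were past 1.3-fold and none was below it, and leaving out normoxia replicate 1 or 2 left 17 and 16 called. In the inflammatory list, 4 of 13 tested genes were higher, ICAM1, BIRC3, TNFAIP3 and LIF, beside 8.13% of all tested genes. The other members, among them CXCL8, CXCL1 and NFKBIA, were not called. ICAM1, an adhesion molecule, had 20.9 and 19.8, then 30.0 and 27.0, then 37.6 and 47.3. Without either normoxia library 1 member was called higher, without either Scr-si hypoxia library 2 were, and without METTL4-si replicate 1 there were 6.

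Genes that stayed below normoxia included immediate early genes, which respond within minutes to growth signals. EGR1, the zinc finger factor at the head of that response, had values of 308 and 289 in normoxia, 47.1 and 50.4 in Scr-si hypoxia, and 103 and 108 in METTL4-si hypoxia. The 3 groups were apart, with METTL4-si in the middle, and the log2 fold change against normoxia was -1.49 (SE 0.0709, adjusted p = 0.00100) after -2.59 under hypoxia alone. FOS had 32.5 and 33.3, then 12.6 and 15.1, then 15.6 and 15.8, and FOSL1 had 131 and 112, then 68.3 and 59, then 55.2 and 59, with log2 fold changes of -1.02 and -1.07. Of 17 listed genes 10 were lower and 1 was higher in METTL4-si hypoxia, with a median of -0.51, and 7 were lower in both comparisons. KLF4, a factor of epithelial differentiation, was the member that rose, from 14.3 and 12.4 to 35.3 and 27.3. Without either normoxia library 4 members were lower.

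ALPP, the placental alkaline phosphatase whose paralogs can share reads, had 15 and 15.2 in normoxia, 2.02 and 3.06 in Scr-si hypoxia, and 4.11 and 3.52 in METTL4-si hypoxia, a log2 fold change of -1.74 (SE 0.169, adjusted p = 0.00215). ALDH3A1, an aldehyde dehydrogenase of squamous epithelia, had 75.4 and 69.8, then 38.2 and 42.2, then 21.7 and 23.7. In ALDH3A1 the METTL4-si libraries were the lowest, and in ALPP they lay above Scr-si hypoxia. RN7SL471P, a copy of the 7SL RNA of the signal recognition particle whose reads may come from other copies, and ENSG00000198558, which has no name in the annotation used, fell by 1.80 and 1.64 on the log2 scale.

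Most of the tested histone genes were lower in METTL4-si hypoxia. This list of replication-dependent histones, which package new DNA in S phase, was chosen after their values were seen. H4C3, an H4 gene with near-identical copies, had 179 and 198 in normoxia, 108 and 116 in Scr-si hypoxia, and 70.5 and 66.6 in METTL4-si hypoxia. The groups did not overlap and stepped down in that order, with a log2 fold change of -1.45 (SE 0.0795, adjusted p = 0.00100) in METTL4-si hypoxia. Of 29 tested histone genes 23 were lower and none was higher, with a median of -0.84. Hypoxia alone lowered 15, with a median of -0.51, and those 15 were lower in both. A further 8 were called in METTL4-si hypoxia only, and 6 were called in neither comparison. All 29 were past 1.3-fold lower in replicates 2 alone, but the list was chosen from values that include these libraries, so this count is no separate check. Without normoxia replicate 1 or 2, 11 and 13 were called.

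Calls among DNA replication and mitosis genes were on the lower side. In the DNA replication list 16 of 29 tested genes were lower and none higher, with a median of -0.40, whereas hypoxia alone lowered 3. TK1, the S phase thymidine kinase, had 197 and 199, then 174 and 182, then 112 and 102, and PCNA, the sliding clamp of DNA polymerase, had 125 and 133, then 113 and 116, then 76.3 and 65.1. The METTL4-si libraries were lowest in both, with log2 fold changes of -0.88 and -0.86. In the mitosis list 11 of 25 were lower and none higher, and hypoxia alone lowered 6. BIRC5, or survivin, had 187 and 194, then 160.5 and 157, then 93.8 and 93.0, a log2 fold change of -1.02. Without normoxia replicate 1 the counts were 8 and 8, and without replicate 2 they were 5 and 6.

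Most cytosolic ribosomal protein genes were lower, and hypoxia alone gave none of them a call. Of 30 cytosolic ribosome genes tested, 27 were lower and none higher in METTL4-si hypoxia, with a median of -0.73 and a range from -1.20 to -0.52, and the median under hypoxia alone was -0.04. RPLP0, a protein of the large subunit stalk, had values of 1343 and 1351 in normoxia, 1336 and 1434 in Scr-si hypoxia, and 674 and 569 in METTL4-si hypoxia. RPS2, a small subunit protein with processed copies in the genome, had 1749 and 1550.4, then 1439.6 and 1559, then 821 and 626. The METTL4-si libraries lay well below the other 4, which overlapped, and the log2 fold changes were -1.12 (SE 0.0992, adjusted p = 0.00189) and -1.20 (SE 0.140, adjusted p = 0.00291). All 30 members were lower by at least 1.3-fold in replicates 2 alone. Leaving out normoxia replicate 1 gave 19 and leaving out replicate 2 gave 14, and in no alternative was a member higher. The 3 members not called, RPL18, RPS3 and RPL13, had METTL4-si values of 191 and 126, 401 and 231, and 330.3 and 157, lower in replicate 2 than in replicate 1. RPS12, which is not on the list, had a large difference among genes lower without a call under hypoxia alone, with 359.7 and 410.0, then 415 and 442, then 175 and 159.

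Calls among mitochondrial genes of the nucleus were on the lower side as well. In the mitochondrial ribosome list 20 of 24 were lower and none higher, with a median of -0.68, after 7 under hypoxia alone. MRPL12, a subunit that also binds the mitochondrial RNA polymerase, had 15.2 and 14.0, then 6.47 and 7.02, then 7.42 and 6.14. In the list of nuclear respiratory chain genes 20 of 34 were lower and none higher, with a median of -0.50, after 3 under hypoxia alone. ATP5PB, a subunit of ATP synthase, had 198 and 223, then 205 and 209, then 122 and 123. In MRPL12 both hypoxic groups were low, and in ATP5PB the METTL4-si libraries were low by themselves. Both lists had 16 lower without normoxia replicate 1, and 10 and 8 without replicate 2. In the ribosome biogenesis list 14 of 26 were lower against 17 under hypoxia alone, with 9 and 6 without normoxia replicate 1 or 2, and NPM1, or nucleophosmin, had 935 and 1000.1, then 811 and 787, then 606 and 578.

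Genes encoded by mitochondrial DNA showed another pattern. Hypoxia alone lowered 10 of 13, with a median of -0.93, and in METTL4-si hypoxia 8 of them were back within 1.3-fold, with a median of 0.12. MT-ATP8, an ATP synthase subunit, had 596 and 534 in normoxia, 112 and 115 in Scr-si hypoxia, and 496 and 647 in METTL4-si hypoxia, so the METTL4-si libraries straddled the normoxia pair. MT-ND6, encoded on the other strand of the mitochondrial genome, had 831 and 728, then 118 and 102, then 513 and 453, and was still lower with a log2 fold change of -0.69 (SE 0.107, adjusted p = 0.00645), a call that was lost without normoxia replicate 1. MT-ND4, MT-ND5 and MT-CO2 were called higher at 0.43 to 0.46, and none of these 3 calls held without a library of either control group, in median-centred libraries or in edgeR with TMM factors.

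Other genes that hypoxia lowered were back at normoxia level. GDF15, a stress-induced cytokine, had 33.0 and 29.1 in normoxia, 4.94 and 5.88 in Scr-si hypoxia, and 30.4 and 25.5 in METTL4-si hypoxia. EREG, the EGF family ligand epiregulin, had 199 and 205, then 49.2 and 50.8, then 159 and 218. MIR663AHG, a host gene of microRNAs, had 607 and 739, then 147 and 162, then 664 and 767. The METTL4-si libraries overlapped with normoxia in all 3, and the Scr-si hypoxia libraries were far below. CYP24A1, which inactivates vitamin D, and VASN, a binder of TGF-beta, also returned, with log2 fold changes of -0.30 and -0.11 against normoxia after -1.84 and -1.77 under hypoxia alone. Cholesterol synthesis showed the return from the other side: hypoxia alone raised 12 of 22 genes, with a median of 0.48, and in METTL4-si hypoxia 10 of those were back, none was higher and HMGCS1, the entry enzyme, was lower at -0.76, a call that was lost without normoxia replicate 2.

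Fewer genes turned from below normoxia to above it. CLU, the chaperone clusterin, had 61.2 and 58.5 in normoxia, 29.0 and 29.1 in Scr-si hypoxia, and 104 and 93.9 in METTL4-si hypoxia, a log2 fold change of 0.72 (SE 0.0763, adjusted p = 0.00249). PODXL, a sialomucin, had 23.4 and 19.1, then 15.3 and 15.2, then 41.3 and 36.0, and SLC27A2, a fatty acid transporter, had 5.24 and 5.05, then 1.62 and 1.87, then 10.2 and 8.05. The 3 groups did not overlap in any of them, and the separation of METTL4-si from normoxia was part of how these genes were chosen. S1PR3, ENPP1 and PRTG had log2 fold changes of 0.81, 0.75 and 0.69. Without normoxia replicate 1 the group held 4 genes, without replicate 2 it held 1 and without Scr-si hypoxia replicate 1 or 2 it held 15 and 12, whereas 100 and 225 genes were in it without METTL4-si replicate 1 or 2, and of the 6 named genes only CLU kept its call without normoxia replicate 2.

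Genes lower without a call under hypoxia alone also included some of no common list. ARHGDIB, an inhibitor of small GTPases, had 61.9 and 67.1, then 82.7 and 78.3, then 21.2 and 25.8, and PSMB2, a proteasome subunit, had 115 and 119, then 103 and 104, then 54.2 and 46.5. GTF3C6, a subunit of the RNA polymerase III factor TFIIIC, and MT1E, a metallothionein, had log2 fold changes of -1.24 and -1.48. The METTL4-si libraries were the lowest in each. Replicates 2 alone put 1550 of these 1662 genes past 1.3-fold, and without normoxia replicate 1 or 2 there were 915 and 514.

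The lncRNA RP11-390F4.3 (ENSG00000225489, chromosome 9, 6716157 to 6727438, GRCh37), the transcript that the study examined with METTL4, stayed above normoxia. It had values of 12 and 12.3 in normoxia, 31.7 and 31.3 in Scr-si hypoxia, and 19 and 22.2 in METTL4-si hypoxia. The METTL4-si libraries lay between the other groups, with a log2 fold change of 0.71 against normoxia (SE 0.10, adjusted p = 0.00473) and of -0.59 against Scr-si hypoxia (adjusted p = 0.00550). Its call against normoxia was lost without normoxia replicate 2. KDM4C (6720863 to 7175648), a histone demethylase gene on the same strand, begins inside it, and reads in the overlap cannot be assigned to 1 gene. Of 15 listed lncRNAs 3 were higher and 3 lower than normoxia, beside 8.13% and 13.5% of all tested genes, and 9 were not called. MIR210HG, host of the hypoxia microRNA, had 2.58 and 2.46, then 23.4 and 25.4, then 3.59 and 4.0, and H19, the imprinted transcript, had 120.3 and 105, then 406 and 459, then 69.2 and 71.8, with log2 fold changes of 0.45 and -0.66. MALAT1, at 0.62, SNHG5, at -0.69, and NEAT1, at -0.43, were the others, and without normoxia replicate 1 or either Scr-si hypoxia library 1 was higher and 2 lower, and without normoxia replicate 2 none was higher and 2 were lower.

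lncRNAs were unevenly spread over the groups. They made up 74 of the 406 still higher genes (18.2%) and 147 of the 862 genes higher without a call under hypoxia alone (17.1%), but 9 of the 433 still lower genes (2.08%) and 24 of the 1662 in the matching lower group (1.44%). Of all tested genes 1758 were lncRNAs (10.8%), and among raised and back genes the share was 9.47%. These shares were not matched for level. The median log2 fold change in METTL4-si hypoxia over all genes was -0.066 with a mean of at least 5 and 0.039 without a filter. Whether the level of lncRNAs had a part in their spread was not tested.

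The list of EMT regulators, factors that switch epithelial cells to a mobile state, also holds genes that are not such factors, among them CDH1 and FN1. Of 12 tested, 2 were higher and 2 lower than normoxia, beside 8.13% and 13.5% of all tested genes, with a median of -0.12. The higher ones were CDH1 and FN1, and the lower ones were SNAI2 and TCF3. SNAI2, or Slug, had 32.5 and 28.4, then 53.8 and 55.4, then 19.9 and 22.6, and CDH1, the epithelial E-cadherin, had 253 and 212, then 365 and 397, then 551 and 354. FN1, or fibronectin, had 15.4 and 14.1, then 23.4 and 21.1, then 32.8 and 28.3. SNAI2 was thus lowest in METTL4-si hypoxia (-0.50), while CDH1 (0.93) and FN1 (1.00) were above normoxia and CDH1 was far higher in the METTL4-si library with transcripts of other cells. TCF3 was the other member that fell (-0.56). SNAI1, with 1.37 and 1.07, then 0.539 and 0.410, then 1.52 and 1.74, and TWIST2 were lowered and back, SOX2 had 11.6 and 9.92, then 1.71 and 1.64, then 8.02 and 7.70 without a call, and TWIST1, ZEB1, CDH2, JUP and ZMIZ1 were not called in either comparison. The calls of SNAI2, CDH1 and TCF3 were lost without a normoxia library, SNAI2 was at -0.32 in replicates 2 alone, 4 members were lower without METTL4-si replicate 1, and 1 was without METTL4-si replicate 2 or either Scr-si hypoxia library. VIM and ZEB2 had at most 1.17 and 0.867 and were not tested.

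The remaining lists moved in part. Of 24 tested matrix and adhesion genes 6 were higher and 3 lower, beside 8.13% and 13.5% of all tested genes. ITGA5, a fibronectin receptor chain, had 32.6 and 32.7, then 106 and 124, then 52.9 and 59, while MMP10, or stromelysin 2, had 13.9 and 15.3, then 4.85 and 5.11, then 6.22 and 7.65. These 2 stayed on the side to which hypoxia had moved them, MMP10 not without normoxia replicate 2. Of the other higher members, ITGA2 and COL4A1 had been lowered by hypoxia alone, and TIMP3, ITGAV and ITGB6 had no call under it. Of the other lower ones, MMP13 had been lowered by hypoxia alone and COL12A1 had no call under it. Without normoxia replicate 1 there were 2 higher and 1 lower, and without replicate 2 there were 1 and 0. Of 9 keratinocyte differentiation genes 3 were lower and KLK6 was higher, beside 13.5% and 8.13% of all tested genes. KRT13 was among the lower ones, at 32.9 and 31.6, then 8.67 and 11.8, then 11.5 and 11.9. The calls of KLK6 and KRT10 were lost without either normoxia library, which left 2 lower and none higher. Of 7 squamous epithelium genes 3 were lower, KRT5, SFN and KRT17, beside 13.5% of all tested genes, whereas hypoxia alone had raised 5. KRT5, a basal keratin, had 2818.7 and 2579.6, then 2023 and 2245, then 1340.4 and 1459.

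Of 19 integrated stress response genes 8 were lower and none higher, beside 13.5% and 8.13% of all tested genes. Without normoxia replicate 1 or 2, 5 and 3 were lower. ATF4, the factor at the centre of that response, had 329 and 339, then 261 and 278, then 190.3 and 211. Of 14 antioxidant genes under NRF2 4 were lower (13.5% of all tested genes were) and 10 were not called, after 2 had been lower under hypoxia alone. The lower ones were led by GCLM, which makes glutathione, at -0.83, with 2 lower without normoxia replicate 2. Of 17 endoplasmic reticulum chaperones, EDEM1 was higher (0.44) and none lower, beside 8.13% and 13.5% of all tested genes. Hypoxia alone had lowered 5, and the EDEM1 call was lost without either normoxia library. Among 8 genes of adenine methylation ALKBH5, ALKBH1, WTAP and FTO were lower, by 0.68, 0.43, 0.43 and 0.39 on the log2 scale. Of all tested genes 13.5% were lower, and none of these 4 calls held without a normoxia library. ALKBH5, an RNA demethylase, had 108 and 103, then 142 and 146, then 73.9 and 58.1, with METTL4-si lowest. Among markers of other cells, CD14 was called higher (2.95 and 2.95 in normoxia, 4.39 and 6.10 in METTL4-si hypoxia) and CDH5 lower (7.44 and 6.75, then 2.07 and 3.11), and none of the tested urothelium, neuron and melanocyte markers was called, while no liver marker was tested. The CD14 and CDH5 calls were lost without either normoxia library.

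BFTC909 cells, an upper tract urothelial cancer line, gave the same comparison in a separate table with 2 libraries per group. There 3634 of 14869 tested genes were higher in METTL4-si hypoxia than in Scr-si normoxia (24.4%) and 3451 lower (23.2%). METTL4 had 20.8 and 18.9 in normoxia, 19 and 15.6 in Scr-si hypoxia, and 14.4 and 12.2 in METTL4-si hypoxia, a log2 fold change of -0.55 (adjusted p = 0.00894). Of the 406 FADU genes still higher, 311 were tested in BFTC909 and 221 of those (71.1%) were higher there as well, against 23.3% of all 13595 genes tested in both lines. For the genes higher without a call under hypoxia alone the share was 65.3%. On the lower side, 260 of 396 still lower genes (65.7%) and 1067 of 1602 genes lower without a call under hypoxia alone (66.6%) were lower in BFTC909, against 23.8% of all genes. Of 759 raised and back genes, 297 (39.1%) were higher and 108 lower in BFTC909, and of 97 genes raised and now lower, 52 (53.6%) were lower.

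Most of the interferon list was higher in BFTC909 too, and so was ABCA1, which is not on that list. IFI6 had 0.582 and 0.671 in normoxia, 1.16 and 1.39 in Scr-si hypoxia, and 92.2 and 120.0 in METTL4-si hypoxia, and ABCA1 had 21.5 and 21.7, then 81.5 and 80.7, then 156 and 137. Of 28 list members tested 26 were higher and none lower, with a median log2 fold change of 1.59, after 7 under hypoxia alone. The METTL4-si libraries were highest in both genes, with log2 fold changes of 6.03 and 2.70. H4C3 and RPLP0 were lower in BFTC909 as well (-1.10 and -0.58), and 27 of 30 cytosolic ribosome genes were. HIF targets did not all return there: CA9 had 0.358 and 1.17, then 54.0 and 56.2, then 5.53 and 5.84, and NDRG1 had 118 and 124, then 535 and 569, then 242 and 211, so both stayed between the other groups. Of 39 HIF targets tested in BFTC909 20 were higher and 8 lower than normoxia, whereas BNIP3 and EGLN3 were not called. EGR1 had opposite directions in the lines, with 2.86 and 2.98 in BFTC909 normoxia and 8.39 and 13.6 in METTL4-si hypoxia. No test of the difference between the lines was made.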

How the data were processed

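RNA was sequenced from FADU and BFTC909 cells with a stranded, ribosomal RNA-depleted library kit and paired reads. Per the study's methods, the authors used Trim Galore for trimming, HISAT2 for alignment to hg19 and htseq-count for counts per gene. Versions, annotation and strand setting are not given in the sources used here. The deposited values are a normalized signal, CPM after edgeR's TMM scaling by the authors. All values were whole reads within 0.1 read once divided by the value of 1 read, and the reads recovered in this way gave the depth. The tables of the authors' own comparisons (log fold change, mean level, F and p-value) and the overexpression and CRISPR tables were not used. No sample column was left unmapped.

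Genes that reached 1 in 2 or more of the 6 libraries were tested with limma 3.58.1 (eBayes with trend) in R 4.3.3 on log2(value + 1). All 3 groups of 2 libraries shared the spread, p-values were adjusted by Benjamini-Hochberg over all genes, and a call needed 1.3-fold and an adjusted p under 0.05. BFTC909 was fitted in the same way in its own table. edgeR 4.0.16 and DESeq2 1.42.0 on recovered reads were alternatives. On simulated counts with the FADU means, 63.3% of 98 genes changed 2-fold and 93.8% of 97 genes changed 4-fold were recovered, and 7 of 16142 unchanged genes were called. The simulated libraries were drawn independently with the same spread in every group and without transcripts of other cells. The rate of false calls in these data can therefore differ. Gene names and positions came from GENCODE v44lift37 (GRCh37), which held 18887 of the 19505 identifiers. RP11-390F4.3 was matched through the position of the study's primers. Promoters came from RefSeq (GRCh38.p14).

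The comparison and the 32 gene lists were chosen with earlier results of these data known, and the histone list was added after its values were seen. Named genes were METTL4, RP11-390F4.3, the EMT list, up to 5 called members per list and direction, and, in each group, the 6 genes with the largest difference, a mean of at least 5, no overlap between libraries and the same side by 1.3-fold in replicates 2 (for genes back at normoxia level, replicates 2 within 1.3-fold). Other named genes were chosen after their values were seen, and a few genes are not reported here. The labels do not say that a number links libraries, and no block was used. Differences of replicate 2 from replicate 1 correlated at 0.648 between normoxia and METTL4-si, -0.0402 between normoxia and Scr-si hypoxia and -0.0652 between Scr-si hypoxia and METTL4-si.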

Additional observations from a re-analysis of the deposited data

Results flagged for a closer look

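Of 134 named genes tested in both lines, 16 lay on opposite sides of normoxia in FADU and BFTC909 METTL4-si hypoxia, with no overlap between the libraries of the compared groups in either line. The matching share over all 13595 genes tested in both lines is not given here. Many of the 134 genes were named for their differences in FADU, so the count does not describe genes at large. The difference between the lines was not tested, since the tables were normalized separately. In 11 of them both lines gave a call. Log2 fold changes are given for FADU first. EGR1 had -1.49 and 1.58, and DDIT4, the mTORC1 inhibitor, had -0.45 and 0.99. HMGCS1, of cholesterol synthesis, had -0.76 and 0.62, and the lncRNA NEAT1 had -0.43 and 0.76. The other 7 were higher in FADU and lower in BFTC909. PODXL had 0.84 and -2.77, ANGPTL4 had 0.51 and -1.51, and STC1 had 0.44 and -0.997. BIRC3 had 0.65 and -0.88, and LIF had 0.49 and -0.38. GLDC had 1.35 and -0.58, and TIMP3, a metalloproteinase inhibitor, had 1.20 and -0.55. In the remaining 5, 1 line gave no call. CA9 had -0.17 in FADU, where it was back at normoxia level, and 1.96 in BFTC909. DNAH11 had 0.27 and -0.56, SNAI1 had 0.24 and -0.48, ATF4 had -0.73 and 0.085, and PSAT1, of serine synthesis, had -0.58 and 0.29. SNAI1 was near the floor in FADU, with values from 1.07 to 1.74 in the compared libraries.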

How the results depend on the processing

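Directions of the interferon, ribosomal protein and histone lists were the same in each alternative tried. The alternatives use the same libraries, from whose values the histone list was chosen, so this is not an independent check. Counts are given in the order higher, lower, still higher, still lower, raised and back, lowered and back, raised and now lower, lowered and now higher, higher without a hypoxia call and lower without one. At 2-fold in place of 1.3-fold they were 73, 88, 18, 12, 316, 171, 0, 0, 55 and 76. With only the 4 compared libraries 679 genes were higher, and the groups set by hypoxia alone could not be computed. A mean of at least 5 left 549 genes higher without a hypoxia call. A pseudocount of 5 gave 695 higher, 175 still higher, 30 lowered and now higher, and 490 higher without a hypoxia call. At an unadjusted p under 0.05, 643 were still higher and 99 lowered and now higher. Replicates 2 alone, past 1.3-fold with no test, gave 654 still higher, 705 still lower and 98 lowered and now higher. Leaving out 1 library gave ranges of 144 to 2326, 615 to 2867, 43 to 601, 78 to 671, 249 to 1177, 181 to 1297, 23 to 142, 1 to 225, 100 to 1512 and 514 to 2054, and for METTL4 a log2 fold change from -0.36 to -0.20, never called. The luminal breast median was -0.14 without normoxia replicate 2 and -1.02 without METTL4-si replicate 1, and the fibroblast median -0.39 and -0.99, and without METTL4-si replicate 2 these medians were 3.44 and 2.45. The replicate block gave 1347 higher and 2237 lower genes and ended only the call of MT-ND4 among the named genes. edgeR with TMM called 1445 and 2110, and DESeq2 1143 and 2018. The cause of these shifts was not tested. With 2 libraries per group, 2-fold changes were recovered less often than 4-fold ones in the simulation.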
